A study of Mus musculus with 2 samples.

Results

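Small RNA was sequenced from the forebrain of B6NCrl mouse embryos at 10.5 days of development, with male and female tissue pooled, and the 2 libraries form 1 group with no treatment and no control. Replicate 1 pooled the forebrains of 69 embryos and replicate 2 those of 51 embryos. Described here are 6 miRNA genes, Mir423, Mir149, Mir21a, Mir652, Mir151 and Mir744, out of 1973 counted gene identifiers. They were chosen by their measured level, a mean above 7000 CPM (a gene's count per 1000000 counts of all genes), and by being made from 1 locus without a large family. Their levels are therefore described without a test. Of the 36 genes above that level, 30 are not in the set.

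A miRNA is a short RNA cut from a hairpin in a longer transcript. Many hairpins lie inside an ordinary gene, the host, and are released from its transcript, after which either arm of the hairpin can be loaded into an Argonaute protein. The loaded arm pairs with messenger RNAs through its seed, bases 2 to 8, and lowers their output. In neural tissue, miR-21 is best known from reactive glia after injury and from glioma. The precursor of miR-151 is known as a target of adenosine-to-inosine editing in the mammalian brain, which blocks its cutting by Dicer. miR-423 is found in nearly all tissues and often serves as a reference small RNA, while miR-149, miR-652 and miR-744 have been studied mainly in tumour, blood and vessel cells.

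RefSeq (GRCm38.p6) gave mature sequences for 5 of the 6 genes, which are shown because the count of a gene adds up both arms and because they decide which other genes could share reads or targets. Mir151 is given by name. Seeds are in capitals.
miR-423-5p: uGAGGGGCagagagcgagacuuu
miR-423-3p: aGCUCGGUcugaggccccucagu
miR-149-5p: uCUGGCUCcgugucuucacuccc
miR-149-3p: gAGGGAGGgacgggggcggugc
miR-21a-5p: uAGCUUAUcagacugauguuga
miR-21a-3p: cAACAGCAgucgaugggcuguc
miR-652-5p: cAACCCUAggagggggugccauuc
miR-652-3p: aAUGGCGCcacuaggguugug
miR-744-5p: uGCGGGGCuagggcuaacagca
miR-744-3p: cUGUUGCCacuaaccucaaccu

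The 10 arms carry 10 different seeds, so no 2 of these arms form a seed family. The hairpin of Mir149, 66 bases at chr1:92850378-92850443 on the plus strand, shows how a gene count is made up, with the 5p arm first and the 3p arm second in capitals.
Mir149 hairpin: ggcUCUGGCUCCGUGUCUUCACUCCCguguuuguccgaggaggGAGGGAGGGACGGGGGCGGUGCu
Of its bases 45 belong to an arm, and a read of either arm was added to the same count. The share of each arm is not in the counts.

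Gene-strand counts summed to 3256070 in replicate 1 and 3574530 in replicate 2, which is 38.0% and 37.0% of their reads. Reads that mapped to several places, 30.1% and 28.8%, were given to no gene. Markers of neural progenitors were present, with a summed level of 19957 CPM in replicate 1 and 17469 CPM in replicate 2 over 4 of 5 listed genes, most of it Mir92b at 18228 ± 1668 CPM (SD, n = 2) and next Mir9-3 at 339 ± 34 CPM. The neuron list summed to 619 and 450 CPM over 6 genes, led by Mir137 and Mir128-1. It holds gene copies such as Mir124a-1, Mir124a-2 and Mir124a-3, with means of 1.02, 4.82 and 4.54 CPM. Reads that mapped to several copies were given to no gene, so the sums of lists with such copies can be too low. The list of endothelial cells, the single gene Mir126a, had 29029 and 31930 CPM. Mesenchyme markers, led by Mir214 and Mir140, summed to 7333 and 6995 CPM, and epithelial markers, led by Mir205 and Mir200c, to 5633 and 5238 CPM. Glial markers summed to 1952 and 1616 CPM, most of it Mir219a-1 with 1798 and 1497 CPM. The means of the other glial genes, Mir219a-2 and Mir338, were 75.9 and 60.8 CPM. Myeloid markers (Mir155 and Mir223, 2 of 3 listed) came to 720 and 641 CPM and erythroid markers (Mir451a and Mir144) to 661 and 760 CPM. Markers of cells other than neural ones were thus detected in both libraries. In pooled tissue, fewer cells of a type and less RNA per cell cannot be told apart, and how much of each described miRNA came from which cells was not tested.

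Together the 6 genes held 5.17% ± 0.11 of all gene counts (SD, n = 2). In replicate 1 they had 170987 counts, a share of 5.25% (95% exact Clopper-Pearson interval 5.23 to 5.28), and in replicate 2 they had 181996 counts, a share of 5.09% (5.07 to 5.11). These intervals reflect sampling of reads within each library alone. PCR copies of 1 molecule are counted separately in them. The 6 levels were close to each other, between 7324 and 11053 CPM on average.

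The gene with the highest level was Mir423, in the host Nsrp1, which codes for a splicing regulator of nuclear speckles. Mir423 (ENSMUSG00000065518.2) had 10658 CPM in replicate 1 and 11449 CPM in replicate 2, a mean of 11053 ± 559 CPM, and ranked 22 among all genes. It was the highest of the 6 in both libraries. The counting interval ran from 10546 to 10770 CPM in replicate 1 and from 11339 to 11560 CPM in replicate 2, so the 2 libraries differed by more than counting error.

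Mir149 (ENSMUSG00000065470.1) followed at rank 25. Its host Gpc1 codes for glypican 1, a heparan sulfate proteoglycan of the cell surface that modulates FGF signalling in the developing mouse brain. Mir149 had 10472 CPM in replicate 1 and 9722 CPM in replicate 2, a mean of 10097 ± 531 CPM. In human tumour cells miR-149-3p is known to lower AKT1 and E2F1. Replicate 1 was the higher library here, the reverse of Mir423.

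Mir21a (ENSMUSG00000065455.1) lies within Vmp1, which codes for a membrane protein of the endoplasmic reticulum needed for autophagy. It had 7963 CPM in replicate 1 and 8114 CPM in replicate 2, a mean of 8038 ± 106 CPM at rank 29. With a coefficient of variation of 1.32% in CPM it had the smallest spread of the 6, whose coefficients reached 6.60% for Mir744. That order depends on the scaling. After the TMM scaling used below, the log2 ratio between the libraries was −0.06 for Mir21a and 0.06 for Mir652. With no filter on low counts these ratios were −0.08 and 0.04. A well known target of miR-21 is the messenger RNA of the growth inhibitor Pdcd4.

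The remaining 3 genes had nearly the same level. Mir652 (ENSMUSG00000076011.1), in the X-linked membrane protein gene Tmem164, had 7862 CPM in replicate 1 and 7389 CPM in replicate 2 (mean 7625 ± 334, rank 33). Mir151 (ENSMUSG00000065612.1), in Ptk2, the gene of focal adhesion kinase, had 7893 CPM in replicate 1 and 7259 CPM in replicate 2 (mean 7576 ± 448, rank 34). Mir744 (ENSMUSG00000076460.1), in Map2k4, a kinase that activates JNK, had 7665 CPM in replicate 1 and 6982 CPM in replicate 2 (mean 7324 ± 483, rank 35). All 3 were higher in replicate 1, and Mir744 was the lowest of the 6 in both libraries.

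**Figure D1:**
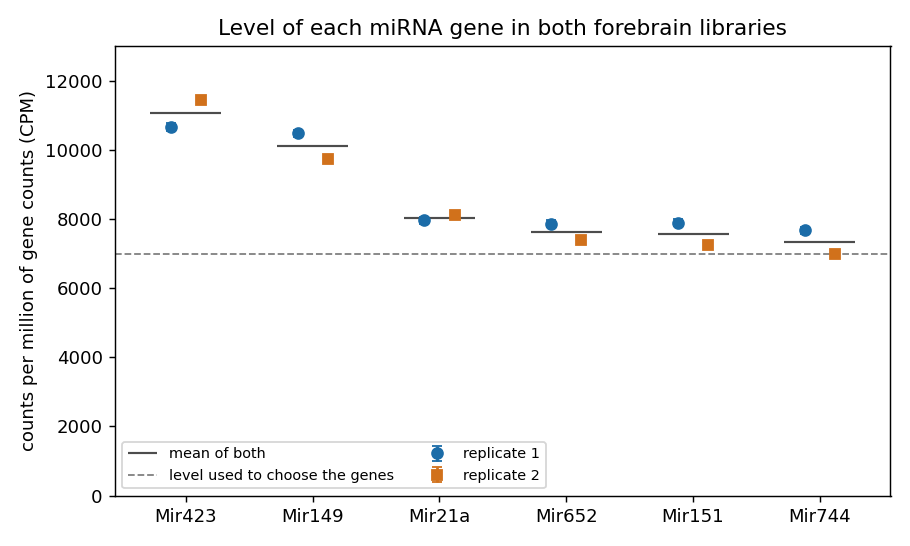
Level of each of the 6 genes in CPM. Points are single libraries with their 95% counting interval, short lines are the mean of both, and the dashed line is the level of 7000 CPM by which the genes were chosen. Mir423 and Mir149 lie between 9722 and 11449 CPM and the other 4 between 6982 and 8114 CPM.

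Measured by their own SDs, Mir423 and Mir149 stood apart from the other 4 genes, while neighbours within each of these groups were mostly within the spread of each other. Of 15 pairs, 14 had the same order in both libraries, and in 9 the difference of the means was larger than the sum of both SDs. Mir423 and Mir149 each stood above Mir21a, Mir652, Mir151 and Mir744 by more than that. Mir423 exceeded Mir149 by 0.03 on the log2 scale in replicate 1 and by 0.24 in replicate 2, a gap within the spread. Mir652 and Mir151 changed places, with a log2 gap of −0.01 in replicate 1 and 0.03 in replicate 2. The gap from Mir21a to Mir744 of 715 CPM exceeded the spread, while the gaps from Mir21a to Mir652 and from Mir151 to Mir744 did not.

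A read of these libraries is a whole RNA shorter than 30 nt, so levels were not divided by hairpin length. Per 100 nt of hairpin the order would be another, led by Mir149 with 15299 CPM per 100 nt, Mir151 with 11142 and Mir423 with 10141, ahead of Mir21a with 8737, Mir652 with 7781 and Mir744 with 7324. The hairpin of Mir423 has 109 nt and that of Mir149 66 nt.

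Genes next to the 6 in the order of levels did not stand clear of them. Mir130b (11567 CPM) and Mir92-1 (10379 CPM) enclosed Mir423, and Mir369 (10300 CPM) and Mir302a (9828 CPM) enclosed Mir149. Mir342 (8107 CPM) and Mir363 (8022 CPM) lay on either side of Mir21a, Mir302d (7853 CPM) lay above Mir652, and Mir1983 (7135 CPM) lay below Mir744. In none of these 8 neighbouring pairs was the difference of the means larger than the sum of both SDs. Just inside the level of 7000 CPM were Mir151, Mir744 and Mir1983, and just outside it were Mir20b (6839 CPM), Mir298 (6609 CPM) and Mir296 (6526 CPM). Mir744 passed through its mean, since replicate 2 alone gave 6982 CPM.

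**Figure D2:**
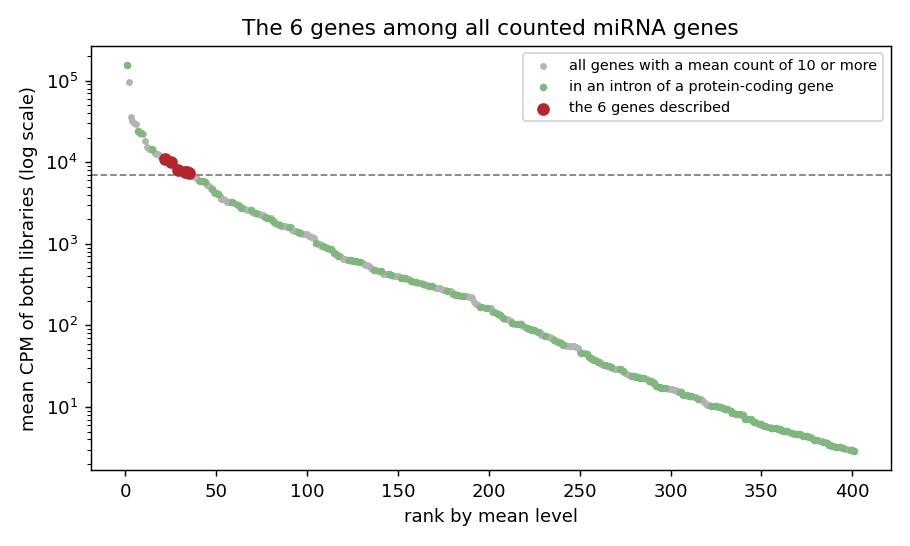
Mean level of the 401 genes averaging at least 10 counts, ordered by level, on a log axis. The 6 genes, in red, sit between ranks 22 and 35, just above the dashed line at 7000 CPM, and genes in an intron of a protein-coding gene, in green, occur at every level.

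The annotation places 5 of the 6 hairpins in an intron and Mir21a in an exon. In GENCODE M21, Mir21a (chr11:86584067-86584158, minus strand) overlaps 1 of the 8 annotated transcripts of Vmp1. It lies in the last of 12 exons of that transcript, in its 3' UTR, and ends 202 nt before the end of the gene. Both of its mature sequences also occur in the spliced Vmp1 transcript, while those of the other 4 genes with a sequence occur in no annotated transcript but their own. The set is therefore one of hairpins on the strand of a protein-coding host, and Mir21a is no intronic gene by this annotation.

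The 5 intronic hairpins differ in where they lie. Mir423 (chr11:77078064-77078172, minus strand) is in the first intron of Nsrp1, 1634 nt long, and begins 263 nt from the start of the host. Mir149 is also in a first intron, of 21249 nt, and lies 18.7 kb into Gpc1. Mir652 (chrX:142739000-142739097, plus strand) is in intron 2 of 69090 nt, 57.6 kb into Tmem164. Mir744 (chr11:65734733-65734832, minus strand) lies 359 nt behind the upstream exon in intron 3 of Map2k4, 53.5 kb from its start. Mir151 (chr15:73254815-73254882, minus strand) is in intron 23 of Ptk2, 168 kb from its start, and faces the antisense RNA gene 1700085D07Rik on the other strand. Intron numbers are those of the longest basic protein-coding transcript that holds the hairpin. An intron holds it in 2 of 3 annotated transcripts of Nsrp1, 1 of 5 of Gpc1, 7 of 9 of Tmem164, 5 of 7 of Map2k4 and 5 of 15 of Ptk2. The hairpins lie between 263 nt and 168 kb into the host. The levels lie within 1.51-fold of each other, but the genes were chosen by level. A relation of position to level was not tested. The messenger RNA of the hosts was not measured in these libraries, so host and miRNA levels cannot be set side by side.

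**Figure D3:**
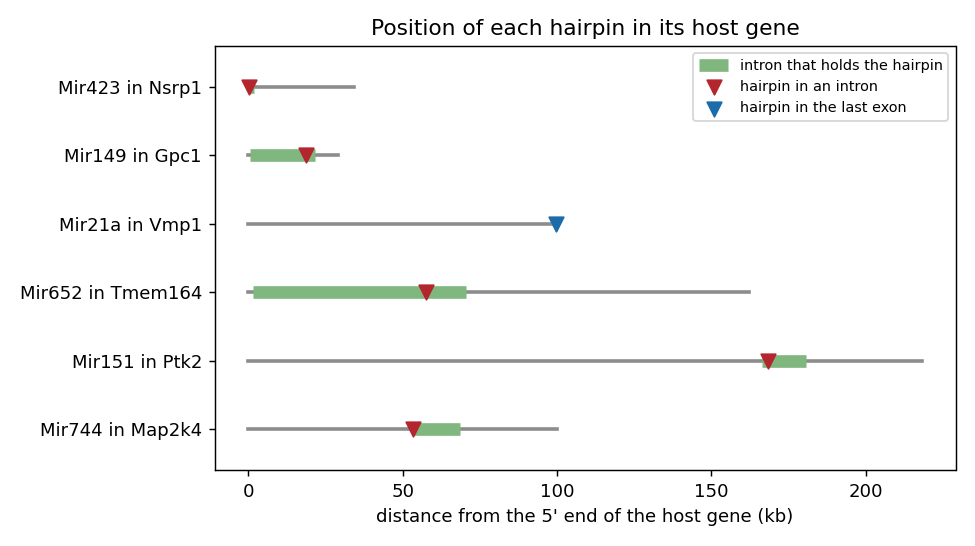
Position of each hairpin along its host gene, in kb from the 5' end of the host. Grey lines are the host genes, green bars the introns that hold a hairpin and triangles the hairpins. Mir423 lies at the start of Nsrp1, and Mir21a, in blue, lies in the last exon of Vmp1.

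No other counted miRNA gene lies in the same host on the same strand or within 10 kb of any of the 6. Mir744, Mir423 and Mir21a are on chromosome 11, but 11.3 Mb and 9.51 Mb apart. That chromosome holds 29 of the 401 tested genes (7.23%) and 3 of the 36 genes above 7000 CPM, and these 3 are all in the set.

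Sequence bears on the counts through reads that several genes share. None of the 5 genes with sequences makes a mature sequence that another gene of the RefSeq table also makes, against 46 of 357 tested genes with a sequence (12.9%). Being of 1 locus was part of the choice, so this describes the set. The seeds of miR-423-5p, miR-149-3p and miR-21a-5p occur in 1, 4 and 1 other genes, and none of these averaged 10 counts. The other 7 seeds occur in no other gene of the table. Of the 5p arms, 4 of 5 begin with U, against 39.8% of the 314 5p arms of tested genes, and none of the 5 3p arms does, against 34.1% of 320. The arms had a median of 60.0% G and C, from 36.4% in miR-21a-5p to 81.8% in miR-149-3p, beside a median of 50.0% over 657 mature sequences of tested genes.

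The mouse genome holds further genes named for miR-21, shown here because they could take reads from Mir21a. Seeds are in capitals.
miR-21a-5p: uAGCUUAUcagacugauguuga
miR-21b: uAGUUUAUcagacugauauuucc
miR-21c: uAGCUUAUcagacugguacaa
Counted from 1 at the 5′ end and written with the base of miR-21a-5p first, miR-21b differs by C4U, G18A, G21U and A22C. miR-21c shares the seed and the first 15 bases and differs by A16G, G18A, U19C, U20A and G21A. Mir21b and Mir21c had 0 counts in both libraries, which allows up to 0.921 CPM in replicate 1 and 0.839 CPM in replicate 2. All counts of these 3 genes were those of Mir21a. Mir590 was not analysed here.

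The other counted genes listed with Mir151, which are Mir28a, Mir708 and Mir28b, were less abundant. miR-28 and miR-151 are known as hairpins derived from LINE-2 repeats, and Mir28a lies in the Lpp gene. Mir28a had 1020 CPM in replicate 1 and 1028 CPM in replicate 2 (mean 1024 ± 5.4). Mir708, in an intron of the neural adhesion gene Tenm4, had 3373 and 3099 CPM (mean 3236 ± 194). Mir28b had 2 counts in each library, below the 3 counts that a count of 0 allows. Mir151 thus had the highest of the 4 levels, but it was chosen by its level. miR-28a-5p and miR-708-5p share a seed, as their sequences show.
miR-28a-5p: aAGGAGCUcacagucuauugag
miR-708-5p: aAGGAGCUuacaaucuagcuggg

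Other miRNA genes of protein-coding hosts were mostly lower, as the choice by level brings with it. Of 658 genes in an intron of a protein-coding gene and in no exon, 159 averaged at least 10 counts, with a median of 57.0 CPM, and 12 exceeded 7000 CPM. Besides the 5 described here these were Mir335, Mir30e, Mir26b, Mir99b, Mir106b, Mir130b and Mir342, of which the first 5 were named after their values were seen. Mir342, in Evl, was the only gene of a list of single-gene miRNAs with broadly expressed hosts to exceed that level. That list, with 21 counted genes of which 14 are intronic by the annotation, had a median of 613 CPM and ran from 23.6 CPM for Mir582 to 8107 CPM for Mir342. After Mir342 came Mir872 (4645 CPM), Mir140 (3237 CPM), Mir425 (3133 CPM) and Mir361 (2569 CPM). Mir191, Mir378a, Mir664 and Mir28c were not analysed here.

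Among single-gene miRNAs with neural hosts, Mir149 had a level that no other listed gene reached, but Mir149 was chosen by its level. Without it the 11 counted genes had a median of 46.5 CPM. Mir708 was next (3236 CPM), followed by Mir139 (1830 CPM), Mir598 (379 CPM), Mir488 in the neuronal gene Astn1 (75.1 CPM) and Mir338 in Aatk (60.8 CPM), a miRNA of oligodendrocytes. All 11 averaged at least 10 counts. Mir338 is also on the glial list and Mir140 on the mesenchyme list.

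**Figure D4:**
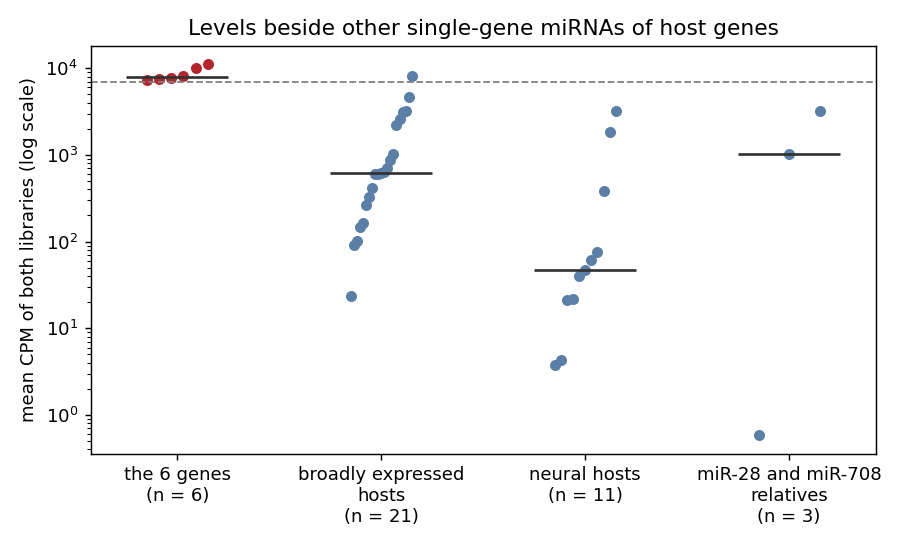
Mean level of the 6 genes and of 3 lists of other genes, on a log axis, with the 6 genes left out of the lists. Short lines are medians, and the dashed line marks 7000 CPM. The list medians are 613 CPM for broadly expressed hosts and 46.5 CPM for neural hosts.

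The 2 libraries were then compared gene by gene. Ratios are replicate 1 over replicate 2 after TMM scaling, on the log2 scale, and an exact binomial test asked whether the counts split as the library sizes do, with adjustment over 401 genes. It weighs the sampling of reads alone, and sets 1 library against the other rather than 1 condition against another. All 6 genes were called different, against 43.4% of the 401 tested genes, and all 6 are counted deeply, with 24957 to 40924 counts a library. Most were also called among the 30 other genes above 7000 CPM, of which 10 were higher in replicate 1, 17 were lower and 3 were not called. Higher in replicate 1 were 4 of the 6, against 19.7% of all tested genes, and lower were 2, against 23.7%.

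The differences were small. Mir744 had 24959 counts in replicate 1 and 24957 in replicate 2, which after scaling gives a log2 ratio of 0.10 (95% counting interval 0.08 to 0.13, adjusted p = 5.1e-15, exact binomial test). Mir151 had a ratio of 0.09 (adjusted p = 7.2e-12, exact binomial test), Mir149 one of 0.08 (adjusted p = 1.9e-11, exact binomial test) and Mir652 one of 0.06 (adjusted p = 1.3e-05, exact binomial test). Mir423 was lower in replicate 1, with 34702 counts against 40924 and a ratio of −0.13 (interval −0.15 to −0.11, adjusted p = 4.2e-36, exact binomial test). Mir21a was lower by a ratio of −0.06 (adjusted p = 1.0e-05, exact binomial test). Under DESeq2 size factors or scaling to the total count, the ratio of Mir21a was −0.03 and was no longer called.

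Over the 6 genes the median size of the ratio was 0.08, beside 0.17 over all 401 genes and 0.11 over the 30 other genes above 7000 CPM. A larger ratio than that of Mir423, the largest of the 6 in size, was found in 58.4% of the tested genes. The signed median was 0.07 for the 6 and −0.03 for all tested genes. The spread between replicates, as the biological coefficient of variation from edgeR's common dispersion, was 13.9%, which corresponds to an SD of 0.28 for a log2 ratio. All 6 ratios lie within that SD. When edgeR's exact test took this spread into account, 0 of the 6 genes were called after adjustment, against 0.998% of all tested genes. At an unadjusted p under 0.05 it had 0 of the 6 genes and 22 of the 401 tested genes. That spread was estimated from the same 2 libraries, so their differences were already counted as spread and few calls follow from the setting.

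**Figure D5:**
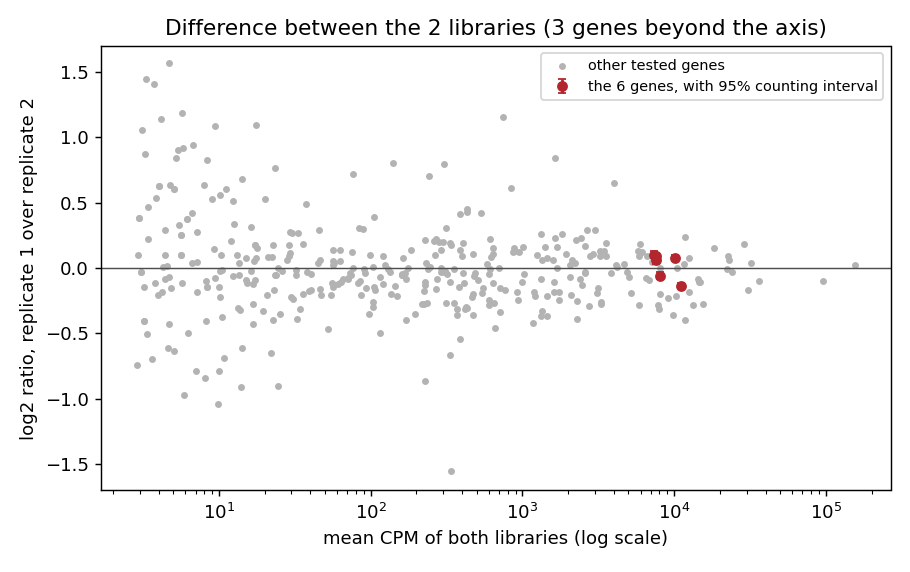
Log2 ratio of replicate 1 over replicate 2 against the mean level, on a log axis, for the tested genes, with 3 genes beyond the axis. The 6 genes, in red with their 95% counting interval, lie between −0.13 and 0.10.

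Some marker genes differed between the libraries by the same binomial test. The summed level of the neural progenitor list was 19957 CPM in replicate 1 and 17469 CPM in replicate 2, and 3 of its 4 counted genes were called higher, against 19.7% of all tested genes. By edgeR's exact test, which takes in the spread between replicates, the adjusted p was 1 for its leading genes Mir92b and Mir9-3. The neuron, glial, myeloid and epithelial sums were higher in replicate 1, as were Mir149, Mir652, Mir151 and Mir744, although single genes such as glial Mir338 (59.0 CPM in replicate 1 and 62.7 CPM in replicate 2) and epithelial Mir205 (2596 and 2604 CPM) were not. The mesenchyme sum was higher through Mir140 alone (3417 and 3057 CPM), while the other 3 genes of that list were slightly lower in replicate 1 and not called. The endothelial marker Mir126a was lower in replicate 1, at 29029 CPM against 31930 CPM in replicate 2, as were Mir423 and Mir21a. The 2 erythroid genes moved apart, with Mir451a at 601 CPM in replicate 1 and 707 CPM in replicate 2, and Mir144 at 59.9 and 53.2 CPM; Mir144 was not called. The part of these cells in the ratios was not tested.

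Reads on the strand opposite to the gene were nearly absent. Mir423, Mir149, Mir652, Mir151 and Mir744 had 0 opposite-strand counts in both libraries. For Mir151, which has an antisense gene annotated across from it, the limit of 3 counts that a count of 0 allows is a share of 0.0117% in replicate 1 and 0.0116% in replicate 2. The upper end of the two-sided 95% exact interval is 0.0144% and 0.0142%. Mir21a had 6 in replicate 1 and 5 in replicate 2, a share of 0.0231% (95% exact interval 0.0085 to 0.0503) and 0.0172% (0.0056 to 0.0402). Of the 36 genes above 7000 CPM, 5 had any opposite-strand count, and over all genes 96.69% and 96.38% of the counts on either strand were on the strand of the gene.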

How the data were processed

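The authors deposited 1 table of raw counts of reads per gene for each library, with no normalization; per the authors' file notes the assembly was mm10 and the annotation M4, and per the labels the fragments were shorter than 30 nt. No aligner, trimming or counting program is named in the labels or file notes. Each table has 1973 gene identifiers, of which 1894 matched GENCODE M21 (same build) and 79 with 8 counts did not, and 4 tallies of reads given to no gene, which stayed out of library sizes. Per the labels, the libraries are biological replicates from separate pools of embryos.

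Counts on the strand of the gene were scaled to CPM. For the 401 genes averaging at least 10 counts, ratios took a pseudocount of 0.5 counts and TMM factors from edgeR 4.0.16 under R 4.3.3. The exact binomial test was two-sided, with Benjamini-Hochberg adjustment and a threshold of 0.05. It was tested on simulated counts drawn with sampling of reads alone, so its error rate under spread between replicates was not tested. DESeq2 1.42.0 size factors, total-count scaling, other filters, the count on either strand, a pseudocount of 5 and edgeR's exact test were alternatives. Hosts came from GENCODE M21 and mature sequences from RefSeq, GRCm38.p6. Python 3.11.15 with scipy 1.17.1 did the rest.

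Named genes are the 6, their neighbours in level and in the genome, the genes nearest 7000 CPM, the genes listed with Mir21a and with Mir151, the 5 highest of each host list and the 2 highest of each marker list. The 6 genes and all lists were chosen with earlier results of these data known.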

Additional observations from a re-analysis of the deposited data

How the results depend on the processing

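The summed share of the 6 genes depends on what it is a share of. It was 5.17% of the gene counts, 1.94% of all reads, 6.12% of the gene counts without the most abundant gene and 4.99% with counts on either strand, and it was 5.09% without replicate 1 and 5.25% without replicate 2. The count of the 6 genes that differ between the libraries was 6 under every scaling, filter and strand setting run with the binomial test, except that total-count scaling and DESeq2 size factors left out Mir21a. There 1 gene was lower in replicate 1, and the count in either direction was 5. With edgeR's exact test and the common dispersion 0 genes were called in either direction, 0 higher and 0 lower, and 4 of 401 genes overall against 174 by the binomial test. That dispersion was estimated from these same 2 libraries. No ratio of the 6 changed sign under any alternative. Per 100 nt of hairpin, an alternative chosen after seeing the data, the order of levels changed. No paired analysis was possible because the samples form 1 group. Reads given to no gene and the lack of counts per arm limit what the levels can show.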
